A study of Homo sapiens with 4 samples.

Results

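The miR-26 family was examined across the 4 small-RNA libraries of this series. Its members were chosen by name: every row of the deposited table named miR-26a or miR-26b, whatever the genomic copy or arm. This gave 5 of the 1345 mature miRNA rows, and all 5 were abundant enough to be tested. No measured value enters that rule, but the family itself was selected on a view of earlier results from these libraries, so the p-values below describe the members and are not independent support.

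The libraries came from HCT116, a human colorectal carcinoma cell line. Every library carried an shRNA against SAE2, the catalytic subunit of the SUMO-activating E1 enzyme, that doxycycline switches on. SUMO is a small protein that is attached to other proteins and alters what they do. There were 2 lines with independent shRNAs, sh1 and sh2 (sh2 is written sh4 in the table's column names). The groups were 2 minus libraries (replicate 1 of line sh1, replicate 2 of line sh2) and 2 plus libraries (replicate 1, whose label gives no shRNA number and which was placed in line sh1 by elimination, and replicate 2 of line sh2). Minus and plus were read as without and with doxycycline, although the labels give the same protocol of 3 days of doxycycline for all 4. Doxycycline-treated cells lacking the shRNA were not analysed here, so an effect of the drug and of the knockdown cannot be told apart, and SAE2 mRNA is not read by such libraries. With 1 library per line and condition, the spread between replicates is the spread between the 2 lines.

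The miR-26 miRNAs are conserved regulators made from introns of genes for small C-terminal domain phosphatases, enzymes that dephosphorylate RNA polymerase II and other proteins. A miRNA hairpin gives a 5p and a 3p strand, one of which is usually kept by Argonaute and pairs with target mRNAs mainly through its seed, bases 2 to 8. For miR-26 the 5p strand is the main one. It is known for restraining the Polycomb methyltransferase EZH2 and cell cycle genes and for being repressed by MYC.

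The mature sequences show what the members share. They are RNA, 5′ to 3′, from RefSeq (GRCh38.p14), which held all 5 members, with the seed in capitals.
miR-26a-5p: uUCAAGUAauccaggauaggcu
miR-26b-5p: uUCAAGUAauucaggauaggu
miR-26a-1-3p: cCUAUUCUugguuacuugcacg
miR-26a-2-3p: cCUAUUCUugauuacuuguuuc
miR-26b-3p: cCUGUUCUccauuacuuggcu

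Both 5p strands have the same seed. Counted from the 5′ end, miR-26a-5p and miR-26b-5p differ at 2 of the 21 positions they share, C11U and C21U (the miR-26a-5p base first), and miR-26a-5p is 1 base longer, at 22. The minor strands of miR-26a also share a seed with each other and differ at 5 positions, G11A and C19U, A20U, C21U and G22C near the 3′ end (the miR-26a-1-3p base first). The seed of miR-26b-3p is different. In RefSeq the main seed occurs in 2 further human miRNAs, miR-1297 and miR-4465. miR-4465 was not analysed here, and miR-1297 was at 0 in 3 libraries and at 1.02 normalised counts, about 1 read, in plus replicate 1. So, apart from that 1 read, the main seed was read in this table through the miR-26 5p strands.

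The hairpins are shown to place the strands, with the mature strands in capitals and the rest in lower case (RNA, 5′ to 3′, RefSeq, GRCh38.p14). MIR26A1 lies at chr3:37969404-37969480 on the plus strand within CTDSPL, MIR26A2 at chr12:57824609-57824692 on the minus strand within CTDSP2, and MIR26B at chr2:218402646-218402722 on the plus strand within CTDSP1.
MIR26A1: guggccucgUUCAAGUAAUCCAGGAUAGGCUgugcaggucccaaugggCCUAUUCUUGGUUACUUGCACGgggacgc
MIR26A2: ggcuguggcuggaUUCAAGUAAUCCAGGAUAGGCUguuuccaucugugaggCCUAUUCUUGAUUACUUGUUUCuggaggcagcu
MIR26B: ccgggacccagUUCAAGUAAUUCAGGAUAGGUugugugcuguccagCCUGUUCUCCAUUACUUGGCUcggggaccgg

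Each hairpin has the same orientation as its host gene and overlaps no exon of any annotated host transcript (GENCODE 29). In the principal transcripts it falls in intron 5 of CTDSPL, intron 5 of CTDSP2 and intron 4 of CTDSP1. The 5p strand of MIR26A1 and MIR26A2 is one and the same sequence, so its reads cannot be assigned to a copy. Only the 3p strands tell the copies apart, and reads assigned between near-identical strands, which depends on mismatches allowed in a step not given in the sources used here, were not tested.

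The values are normalised read counts, read counts per mature miRNA that the submitters adjusted towards a common library size. They summed to between 9700472 and 10519207 per library, and 1133 to 1180 miRNAs were above 0.5. The epithelial markers miR-200c-3p, miR-141-3p, miR-192-5p, miR-194-5p and miR-215 were present in every library, with a summed level of 139165 to 160213. Summed levels were 993 to 1212 for 6 blood markers, 13455 to 16189 for 5 stromal and endothelial markers and 55.4 to 73.5 for 3 muscle and liver markers, of which miR-133a was at 0 in both minus libraries. The summed level of the blood and stromal markers overlapped between the groups, while the epithelial sum was 139165 and 140645 in the minus libraries against 153723 and 160213 in the plus ones. Single markers moved within these sums: 3 of the 5 epithelial markers rose, miR-192-5p, miR-194-5p and miR-215 with log2 changes of 0.78, 0.72 and 0.71 (limma adjusted p from 9.78e-09 to 0.00809). Of 4 tested stromal and endothelial markers miR-143-3p rose, at 0.29, and miR-145-5p fell, at −0.29 (limma adjusted p = 0.0414 and 0.0125), and none of 4 tested blood markers passed. The part of these differences in the miR-26 values was not tested.

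miR-26a-5p rose after induction, while both plus values of miR-26b-5p, which carries the same seed, lay below its minus values without passing the test. The minor strand of the CTDSP2 copy of miR-26a was lower in both plus libraries, also without passing, and that of the CTDSPL copy showed no common direction. Of the 5 members, 1 passed the test as a rise and none as a fall, against 28.5% of all 709 miRNAs tested (13.4% rose and 15.1% fell). Among the 190 tested miRNAs with a mean of at least 1000, where both main strands lie, 46.3% passed. The 95 rises and 107 falls over all miRNAs became 121 and 83 under median-ratio scaling. In bulk RNA, a change per cell and a change in how many cells carry a miRNA cannot be told apart.

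miR-26a-5p, the member with by far the highest level, was at 225886 and 215404 normalised counts in minus replicates 1 and 2 and at 267037 and 285728 in plus replicates 1 and 2. Both plus libraries lay above both minus libraries. The mean rose 1.25-fold, from 220645 ± 7412 to 276382.5 ± 13217 (SD, n = 2 each). On the log2 scale this was 0.32 ± 0.082 (fitted change and its standard error, limma on log2(value + 1), Benjamini-Hochberg adjusted p = 0.00216), with a fitted fold of 1.12 to 1.40 at 95% confidence. It ranked 8th by level in both minus libraries and 7th in both plus libraries. In the minus libraries its neighbours by mean level were miR-29a-3p at 237906 and miR-99b-5p at 173534, and neither overlapped it.

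The rise kept its direction in all 15 alternatives and stayed past the threshold in 9 of the 11 that use all libraries. It was 0.15 under quantile normalization, where values are set by rank, and its adjusted p-value rose to 0.1001 with no level filter and 0.160 without the mean-variance trend (limma). With any single library left out the log2 change was between 0.28 and 0.37 and the call was lost (limma adjusted p from 0.0850 to 0.251).

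miR-26b-5p was at 83685 and 85844 in minus replicates 1 and 2 and at 70733 and 78365 in plus replicates 1 and 2. Both plus libraries lay below both minus libraries, and plus replicate 1 was the lowest. Its mean went from 84764 ± 1527 to 74549 ± 5397 (SD, n = 2 each), a log2 change of −0.19 (standard error 0.081). It did not pass (limma adjusted p = 0.0807), and it did with the line as a replicate block (adjusted p = 0.0480), with equal totals (log2 change −0.24, adjusted p = 0.0258) and under quantile normalization (−0.29, adjusted p = 0.0338). Over the 11 alternatives with all libraries its adjusted p-value ranged from 0.0258 to 0.361, and the log2 change was −0.12 under median-ratio scaling and −0.11 without plus replicate 1. In rank it stood 22nd in both minus libraries, 34th in plus replicate 1 and 30th in plus replicate 2. Its minus values overlapped those of its neighbour miR-125b-5p, with a mean of 85097.

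**Figure D1:**
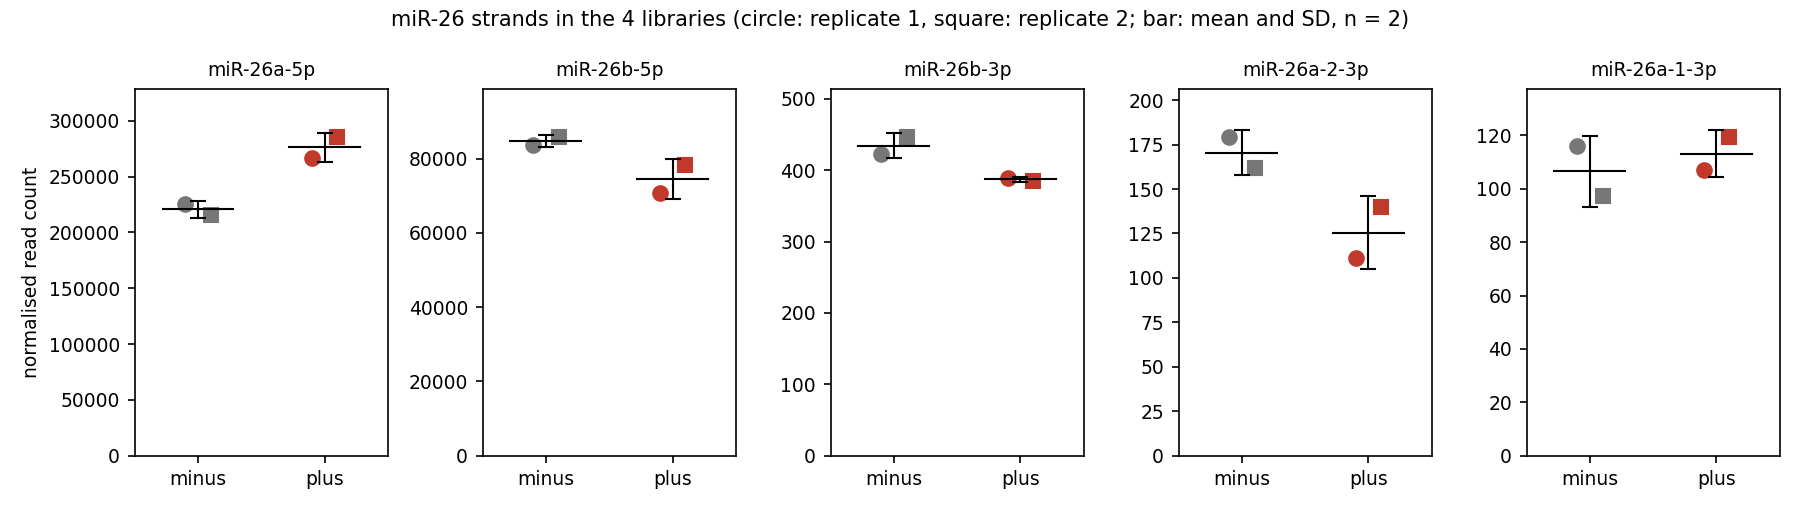
Normalised read count (linear axes from 0, a scale of its own for each strand) of the 5 miR-26 strands in the minus (grey) and plus (red) libraries, with replicate 1 as circles, replicate 2 as squares and the mean and SD as bars. The plus libraries lie above the minus libraries for miR-26a-5p, below them for miR-26b-5p, miR-26b-3p and miR-26a-2-3p, and among them for miR-26a-1-3p.

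The minor strands were at far lower levels and rest on few reads. miR-26b-3p, the partner of miR-26b-5p, was at 422 and 447 in the minus libraries and at 389.7 and 385 in the plus libraries. The groups did not overlap, with plus the lower. Its log2 change of −0.16 (standard error 0.14) did not pass (limma adjusted p = 0.383), and it was 0.019 under quantile normalization. The minor strands stood in the order miR-26b-3p (435 ± 17.4 minus), miR-26a-2-3p (170.5 ± 12.6) and miR-26a-1-3p (107 ± 13.2; SD, n = 2 each), and in the minus libraries no 2 of them overlapped.

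miR-26a-2-3p, which marks the CTDSP2 copy, was at 179 and 162 in minus replicates 1 and 2 and at 111 and 139.96 in plus replicates 1 and 2. Both plus libraries were lower than both minus libraries. Its log2 change of −0.45 (standard error 0.18) did not pass (limma adjusted p = 0.0635). The call was gained with equal totals (−0.50, adjusted p = 0.0487), and over the 11 alternatives with all libraries the adjusted p-value ranged from 0.0487 to 0.216. Leaving out plus replicate 1 gave −0.28, and leaving out plus replicate 2 gave −0.61. These values correspond to about 349 reads in the minus libraries and 245 in the plus ones, or a plus to minus ratio of 0.708 (95% exact binomial interval scaled by estimated depth, 0.599 to 0.836). Such an interval covers counting error only and leaves out the spread between libraries.

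miR-26a-1-3p, which marks the CTDSPL copy, was at 116 and 97.2 in minus replicates 1 and 2 and at 107 and 119.5 in plus replicates 1 and 2. The groups overlapped. The fitted log2 change was 0.090 (standard error 0.20, limma adjusted p = 0.781), and −0.036 without minus replicate 2. About 218 and 221 reads lay behind the groups, or a ratio of 1.02 (95% exact binomial interval 0.844 to 1.24). The fitted 95% interval, from 0.806-fold to 1.40-fold, includes the fold of miR-26a-5p. In the plus libraries the 2 minor strands of miR-26a overlapped.

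For 4 of the 5 members the plus and minus libraries did not overlap, against 62.9% of all tested miRNAs. The median log2 change of the members was −0.16, beside −0.031 over all miRNAs tested. By line, the log2 change of miR-26a-5p was 0.24 in sh1 and 0.41 in sh2, and that of miR-26b-5p −0.24 and −0.13. For miR-26b-3p it was −0.12 and −0.21, and for miR-26a-2-3p −0.69 and −0.21. miR-26a-1-3p alone among the members moved apart, to −0.12 in sh1 and 0.29 in sh2. With 1 library per line and condition none of these differences between lines was tested.

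**Figure D2:**
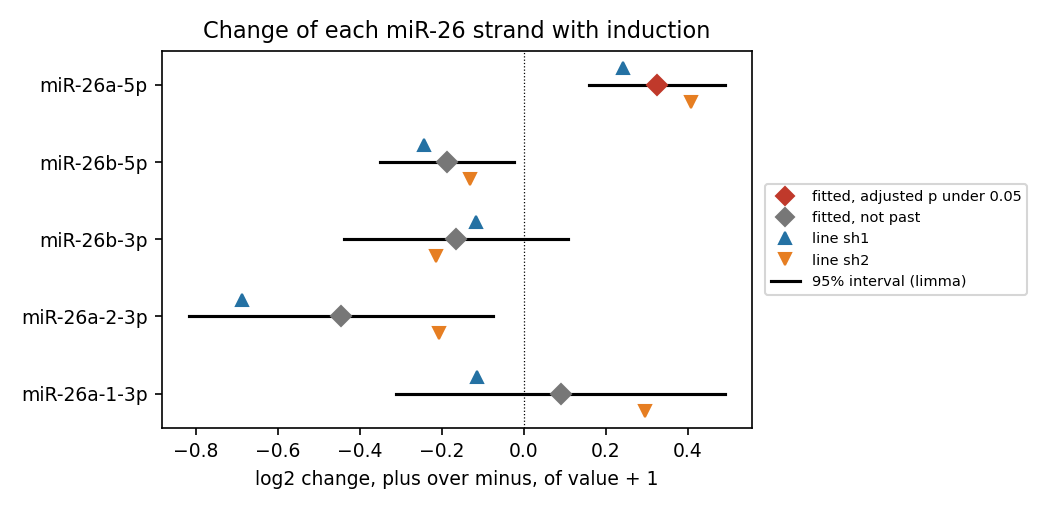
Log2 change, plus over minus, of the 5 strands (diamonds, red where the limma adjusted p was under 0.05) with their unadjusted 95% limma interval, and the change within line sh1 (upward triangles) and line sh2 (downward triangles). Both lines lie to the right of 0 for miR-26a-5p, at 0.24 and 0.41, to the left for miR-26b-5p, miR-26b-3p and miR-26a-2-3p, and on either side for miR-26a-1-3p.

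Ratios within a library do not depend on a scaling factor shared by all its values. They do move under quantile normalization, where values are set by rank. They are ratios of reads, not of molecules, since adaptor ligation differs between sequences. miR-26a-5p had 2.70 and 2.51 times the reads of miR-26b-5p in minus replicates 1 and 2, and 3.78 and 3.65 times in plus replicates 1 and 2. Every plus ratio was above every minus ratio. The mean went from 2.60 ± 0.134 to 3.71 ± 0.0913 (SD, n = 2 each), a log2 shift of 0.51, with 0.48 in line sh1 and 0.54 in line sh2. The shift was several times the spread between lines (pooled SD of the log2 ratio 0.058), and an exact permutation test (two-sided) gave p = 0.333, which is as low as 2 libraries against 2 can reach.

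Expressed as a share of the reads with the miR-26 seed, miR-26a-5p made up 73.0% and 71.5% in the minus libraries and 79.1% and 78.5% in the plus ones. Together both 5p strands made up 3.14% and 3.11% of all normalised counts in the minus libraries and 3.43% and 3.46% in the plus ones. That is a mean of 3.12% ± 0.0270 against 3.45% ± 0.0187 (SD, n = 2 each), 0.32 percentage points more after induction and 1.10 times the minus share.

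This separation was set beside that of other abundant miRNAs of one seed. Among 59 other pairs of miRNAs with a shared seed, over 21 seeds and each with a mean of at least 1000, the median absolute log2 shift was 0.14. In 2 of these pairs the shift was at least that of miR-26, miR-30a-5p with miR-30c-5p at −0.69 and miR-27a-3p with miR-27b-3p at 0.54. miR-100-5p with miR-99b-5p stood just below, at −0.50. Only the 154 of 190 miRNAs at that level that matched a RefSeq sequence entered, so 2 is a lower bound. Left out were miR-30b-5p and miR-30d-5p of the miR-30 family, each at a log2 change of 0.28 beside −0.27 for miR-30a-5p. miR-130a-3p was also left out, at 0.28 beside −0.26 for miR-454-3p. The pairs share members and are given as a description, without a test.

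The strand ratios of the hairpins also differed between miR-26a and miR-26b. miR-26a-5p had 765 and 832 times the summed reads of its minor strands in minus replicates 1 and 2 and 1225 and 1101 times in plus replicates 1 and 2. The plus ratios were higher in both lines, by 0.68 in sh1 and 0.40 in sh2 on the log2 scale. The mean shift was 0.54 (pooled SD 0.098, exact two-sided permutation p = 0.333). Its size depends on the minor strand used. Beside 0.32 for miR-26a-5p, the log2 change was 0.090 for miR-26a-1-3p and −0.45 for miR-26a-2-3p, and neither minor strand passed the test. It was 0.35 under quantile normalization.

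For miR-26b the ratio of 5p to 3p was 198 and 192 in the minus libraries and 182 and 203 in the plus ones. The groups overlapped, and the mean log2 shift was −0.022 (pooled SD 0.085, exact two-sided permutation p = 1). As deposited, the strand ratio of miR-26b shifted by less than the spread between lines, and that of miR-26a by more. Under quantile normalization the shift of miR-26b was −0.31, opposite in sign to that of miR-26a and close to it in size.

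Other hairpins give the scale. These were 182 other hairpins with both strands tested under one name ending in 5p and 3p. Their median absolute shift of the main-to-minor ratio was 0.21, and 28 (15.4%) shifted by at least as much as miR-26a. Minor strands with a copy number in the name, like those of miR-26a, did not enter. Left out, for example, was miR-125b-5p at a log2 change of −0.037 beside −0.71 for miR-125b-1-3p. So was miR-24-3p, at 0.27 beside 0.24 for miR-24-2-5p and 0.15 for miR-24-1-5p. Of the 182, 80 had a main strand with a mean of at least 1000 and a minor strand with one of at least 100. Among these 80, 4 (5%) shifted by at least as much as miR-26a, and the median absolute shift was 0.17. Each of these hairpins entered with 1 main and 1 minor strand. miR-26a-5p was set against the sum of its minor strands, so the measures are not fully alike. The shift of miR-26b was smaller in size than that of 174 of the 182.

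**Figure D3:**
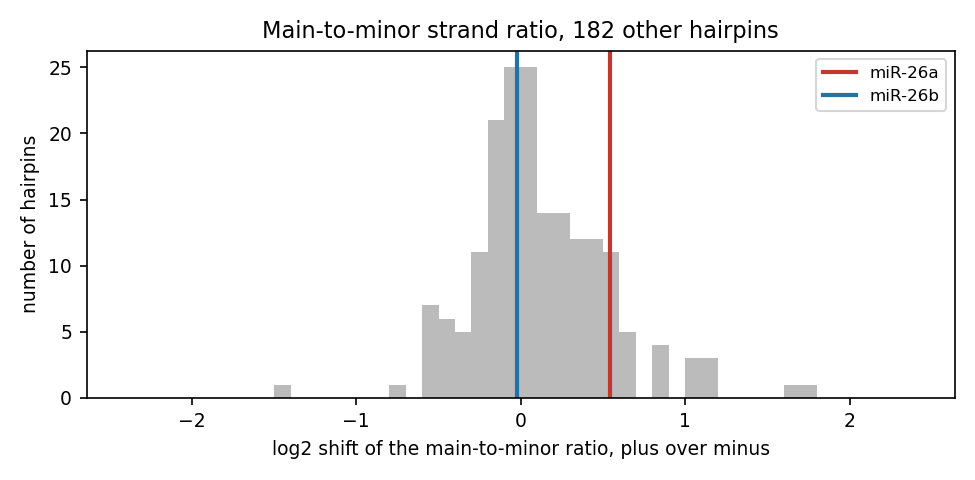
Histogram of the log2 shift, plus over minus, of the main-to-minor strand ratio of 182 other hairpins (number of hairpins per bin on the vertical axis), with lines for miR-26a (main strand against the sum of both minor strands) and miR-26b. miR-26a lies at 0.54 and miR-26b at −0.022, near the middle of the histogram.

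The copies of miR-26a could be compared only through their minor strands. miR-26a-2-3p had 1.55 and 1.66 times the reads of miR-26a-1-3p in minus replicates 1 and 2 and 1.04 and 1.17 times in plus replicates 1 and 2. Both plus ratios lay below both minus ratios. The mean went from 1.60 ± 0.0808 to 1.11 ± 0.0934 (SD, n = 2 each), a log2 shift of −0.54, with −0.57 in line sh1 and −0.50 in line sh2 (exact two-sided permutation p = 0.333). So the minor strand of the CTDSP2 copy made up less of the miR-26a minor reads after induction in both lines.

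**Figure D4:**
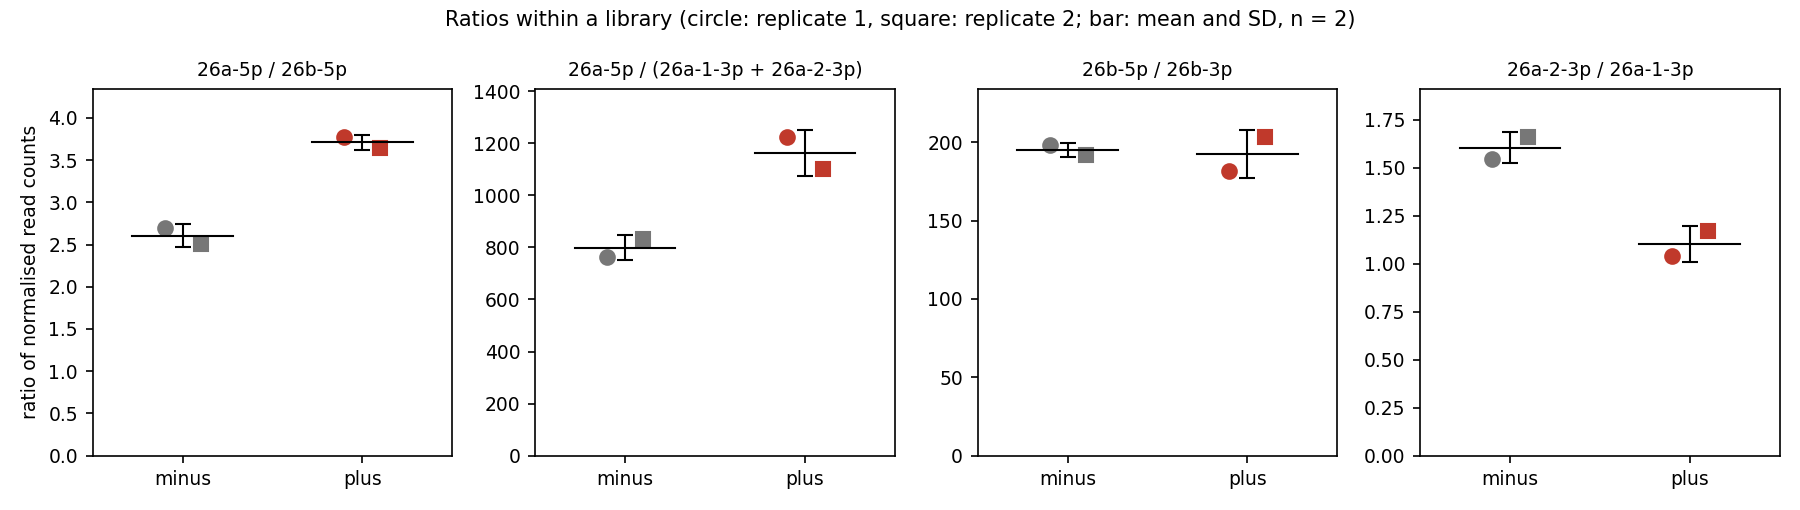
Ratios of normalised read counts within each library (linear axes from 0), minus in grey and plus in red, replicate 1 as circles and replicate 2 as squares, with the mean and SD. From left to right are miR-26a-5p over miR-26b-5p (2.60 to 3.71), miR-26a-5p over its summed minor strands, miR-26b-5p over miR-26b-3p, whose groups overlap, and miR-26a-2-3p over miR-26a-1-3p (1.60 to 1.11).

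Likeness of profile was measured as the root-mean-square distance between centred log2(value + 1) values over the 4 libraries, among 188 other miRNAs with a mean of at least 1000. miR-26a-5p was closest to miR-362-5p at a distance of 0.018, then miR-30e-3p at 0.026 and miR-532-5p at 0.028, whose log2 changes were 0.30, 0.33 and 0.29. miR-26b-5p was closest to miR-222-5p at 0.020, miR-196b-5p at 0.025 and miR-629-5p at 0.026, with log2 changes of −0.21, −0.14 and −0.17. The distance between miR-26a-5p and miR-26b-5p was 0.26. With 4 libraries these profiles have few points, and like log2 changes follow from choosing the closest profiles.

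MYC is known to lower a set of miRNAs that includes both miR-26 main strands, and the others of that set were read beside them. Of 25 tested members outside the miR-26 family, 7 rose and 2 fell, with a median log2 change of 0.11 beside −0.031 over all miRNAs. These 9 calls are 36% of the list, against 28.5% of all tested miRNAs. Of the 21 list members with a mean of at least 1000, 8 (38.1%) were called, below the 46.3% of all miRNAs at that level. The counts of rises and falls were 8 and 0 under median-ratio scaling and 4 and 5 under quantile normalization, so the balance of directions moves with the scaling. No rise or fall passed without the mean-variance trend, and 1 or 2 rises and no fall with either plus library left out.

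miR-26a-5p lay within the range of the 7 rises, above miR-30b-5p and miR-30d-5p, each at a log2 change of 0.28. The other rises were larger than that of miR-26a-5p. Among them were miR-146a-5p, a brake on inflammatory signalling, at a log2 change of 0.99 and the p53-induced miR-34a-5p at 0.76. The rest were miR-22-3p at 0.66, miR-23a-3p at 0.50 and miR-30c-5p at 0.42 (limma adjusted p of these larger rises from 6.02e-10 to 0.000100). miR-26b-5p lay near the other end. There, miR-30a-5p and let-7i-5p fell with log2 changes of −0.27 and −0.26 (limma adjusted p = 0.0149 and 0.0111). The other members named here did not pass, with let-7a-5p at −0.13, let-7b-5p at 0.18, miR-29a-3p at 0.029, miR-15a-5p at −0.16 and miR-16-5p at 0.075.

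**Figure D5:**
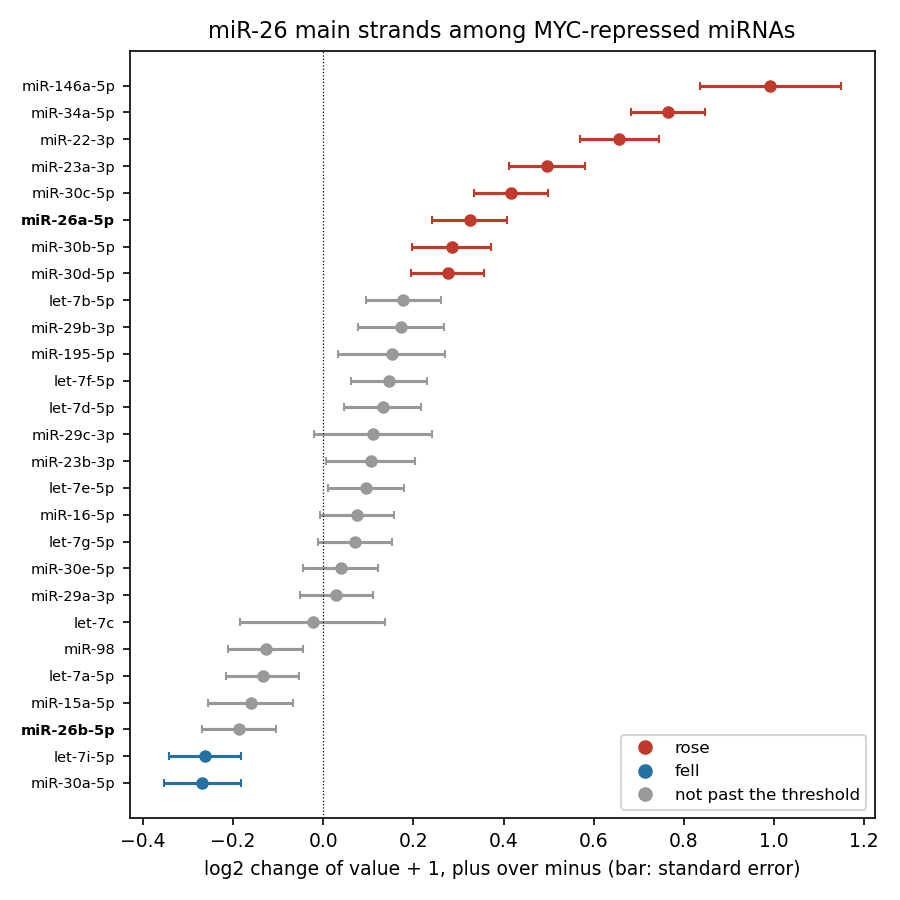
Log2 change, plus over minus, with its limma standard error, of the 25 tested MYC-repressed miRNAs and of miR-26a-5p and miR-26b-5p (names in bold). Red marks rises, blue falls and grey those not past the threshold, and miR-26a-5p stands at 0.32 among the rises while miR-26b-5p stands at −0.19 next to the 2 falls.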

How the data were processed

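Per the labels' protocols, small-RNA libraries were prepared with a modified Illumina kit from column-purified total RNA. The authors deposited 1 signal value for each mature miRNA and library, a read count scaled towards a common library size. Low values lie near whole multiples of a step of 0.945 to 1.03 per library (91.5% to 100% within 0.1 of a step, values up to about 20 steps), which gave 9572177 to 10296521 estimated reads and a floor of 3 reads at 2.84 to 3.08. Because they are not whole for nearly all values, no count model was run. Reads are not independent molecules, so intervals and floors cover counting error only. Trimming with cutadapt is named in the sample titles. The submitters' processing notes list TopHat2 2.0.8b, edgeR and the builds hg19 and GRCh37, with no roles. Which counter and miRNA annotation were used is not given in the sources used here. Coordinates are GRCh38 and were not carried to the files.

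All 709 rows with a mean of at least 10 over 4 libraries were tested for plus against minus by limma 3.58.1 in R 4.3.3 (log2 of value + 1, variance trended on the mean, two-sided), Benjamini-Hochberg threshold 0.05. Fold changes on that scale understate the change of low miRNAs. The fit had 2 residual and 43.0 prior degrees of freedom. Replicate numbers follow the shRNA line in the labels, for plus replicate 1 by elimination. Deviations of same-numbered libraries correlated across 386 miRNAs (r = 0.15). Named were all members, their seed mates, main strands of a list of MYC-repressed miRNAs, the 3 nearest profiles and level neighbours. The rest of that list is given as counts. Members and lists were chosen with earlier results of these data known.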

Additional observations from a re-analysis of the deposited data

Results flagged for a closer look

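For 2 quantities the lines lay on opposite sides of 0, with 1 library per line and condition, so the difference between lines was not tested. The log2 change of miR-26a-1-3p was −0.12 in line sh1 and 0.29 in line sh2. The log2 shift of the ratio of miR-26b-5p to miR-26b-3p was −0.13 in line sh1 and 0.083 in line sh2. Line sh1 rests on plus replicate 1, which was placed there by elimination.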

How the results depend on the processing

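The rise of miR-26a-5p (log2 change 0.32) had the same size but lost its call with no level filter (0.32) and without the trend (0.32), and ranged from 0.28 to 0.37 with 1 library left out. miR-26b-5p (−0.19) gained a call with equal totals (−0.24), under quantile normalization (−0.29) and with the replicate block (−0.19), as did miR-26a-2-3p with equal totals (−0.50). The replicate block changed no other call of a member. Left-out ranges were −0.26 to −0.11 for miR-26b-5p, −0.61 to −0.28 for miR-26a-2-3p, −0.036 to 0.22 for miR-26a-1-3p, negative without minus replicate 2 only, and −0.21 to −0.12 for miR-26b-3p, which reversed to 0.019 under quantile normalization. Under that normalization the log2 shifts became 0.44 for miR-26a-5p to miR-26b-5p, 0.35 for miR-26a-5p to its minor strands and −0.31 for miR-26b-5p to miR-26b-3p. The last was −0.022 as deposited and 0.00075 to 0.061 without minus or plus replicate 1, over a left-out range of −0.10 to 0.061. The 202 calls (95 rises, 107 falls) became 5 (5 and 0) with no level filter and likewise 5 (5 and 0) without the trend, 126 (60 falls) at a minimum mean of 1 and 101 (47 and 54) under quantile normalization. With 1 library left out they ranged from 7 to 115, the rises from 6 to 57 and the falls from 1 to 59. The share of both 5p strands in the total, a check added after the data were seen, was 0.30 to 0.34 percentage points higher with 1 library left out. A fit with a lone library in an arm takes its spread from the other arm. Depth limits the minor strands of miR-26a, at about 103 to 178 reads per library.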
